A study of Mus musculus with 6 samples.

Results

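Liver RNA from mice labelled LIXs was compared with liver RNA from wild-type (WT) mice after 24 h of doxycycline (Dox), with 1 pooled array for each genotype. The members of the comparison are the genes that had a name on the Illumina bead array and exceeded a detection level on at least 1 of these arrays, each represented by its brightest probe. The level lies between deposited intensities of 128.99 and 129.01, a little above the array's background. They number 8115 of the 19057 named genes, of which 6966 were detected on both arrays, 594 on the LIXs array alone and 555 on the WT array alone. Just inside the level stood Dlx6os2, Abr and Pisd-ps2 with a highest reading of 129.01 each, and just outside it Retnlg at 128.97 and Btbd17 and Gm15408 at 128.99.

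Both pools came from FVB mice aged 10 weeks that ate Dox200 chow for 24 h and went without food for 6 h before the liver was taken, and the labels give the tissue as liver slice. The LIXs mice overexpress Xbp1s from a TRE transgene that Dox switches on, and the WT mice received the same chow, so Dox itself was common to both pools. The series holds 4 more pooled arrays of the same strain and age, which are LIXs and WT after 48 h of Dox with the same 6 h fast, a WT pool after 2 h of refeeding and a WT pool after a 24 h fast. The sources used here do not give how many animals made up a pool, their sex, the hour at which livers were taken or the driver of the transactivator. There were no replicates, so every difference below is that between these arrays and no test was possible. Genotype, pool and array cannot be told apart.

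XBP1s is the transcription factor made when the ER stress sensor IRE1 splices Xbp1 mRNA in the cytoplasm. In secretory cells it is known as an activator of genes for protein entry into the endoplasmic reticulum (ER), folding, glycosylation, disposal of misfolded proteins and transport to the Golgi. The hepatocyte exports plasma proteins through this route and also carries out drug oxidation, bile formation and glucose release.

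The probe for Xbp1 read 4537 on the LIXs array and 4259 on the WT array at 24 h, 4350 and 5210 at 48 h, and 5120 and 4457 on the refed and fasted WT arrays. It showed no excess on either LIXs array over the WT range. The sources used here do not give which part of the transcript that single probe reads or whether the transgene holds it, so it cannot tell which pool carried the transgene. Directions below are therefore those of the labels, and whether the RNA on each array is that of its label was not tested. Hepatocyte transcripts marked both arrays as liver, with Apoa1 at 41578 on LIXs and 37965 on WT, Ttr at 42539 and 38995, and Trf, the transferrin gene, at 35937 and 33487. The Alb probe was dim on all arrays, between 130 and 163, and does not report the albumin level.

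Genes with the known recognition sequences of the ER stress response are shown first, because 24 of the ER genes detected here carried such a sequence in the promoter. The promoters are those of RefSeq on the mouse build GRCm38.p6, from 250 bases before to 50 bases after the start site. They were searched on both strands for the ER stress element (ERSE, CCAAT and CCACG with 9 bases between them), for ERSE-II (ATTGG and CCACG with 1 base between them) and for TGACGTGG, a sequence that XBP1 is known to bind. All 3 hold CCACG on one strand, so a stretch can match more than 1 of them. The stretches below belong to the ER genes with the largest differences among those whose match lies before the start site. They read 5′ to 3′ on the strand of the gene, and capitals mark the match, which in Kdelr3, Gbf1 and Derl3 lies on the opposite strand.

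Syvn1: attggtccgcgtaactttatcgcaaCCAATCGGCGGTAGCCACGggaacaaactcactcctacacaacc
Dnajc3: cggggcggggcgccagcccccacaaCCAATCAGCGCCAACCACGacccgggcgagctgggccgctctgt
Alg12: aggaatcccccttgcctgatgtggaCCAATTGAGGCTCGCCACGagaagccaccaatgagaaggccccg
Kdelr3: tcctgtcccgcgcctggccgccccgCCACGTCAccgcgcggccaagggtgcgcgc
Derl3: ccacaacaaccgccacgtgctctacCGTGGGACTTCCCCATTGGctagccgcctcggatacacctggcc
Gbf1: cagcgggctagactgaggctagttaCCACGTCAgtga

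They lie at chr19:6046507-6046575 (plus strand, Syvn1), chr14:118937802-118937870 (plus, Dnajc3), chr15:88819495-88819563 (minus, Alg12), chr15:79516353-79516407 (plus, Kdelr3), chr10:75893217-75893285 (plus, Derl3) and chr19:46152521-46152557 (plus, Gbf1). All are promoter sequence upstream of the annotated start, the match beginning 44, 105, 220, 30, 156 and 12 bases before it in the same order. The Alg12 stretch also holds the ERSE of Creld2, an ER stress gene transcribed the other way. In the plot of difference against signal, the ER genes lie mostly below 0 at all brightness levels and the pancreatic genes above it.

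**Figure D1:**
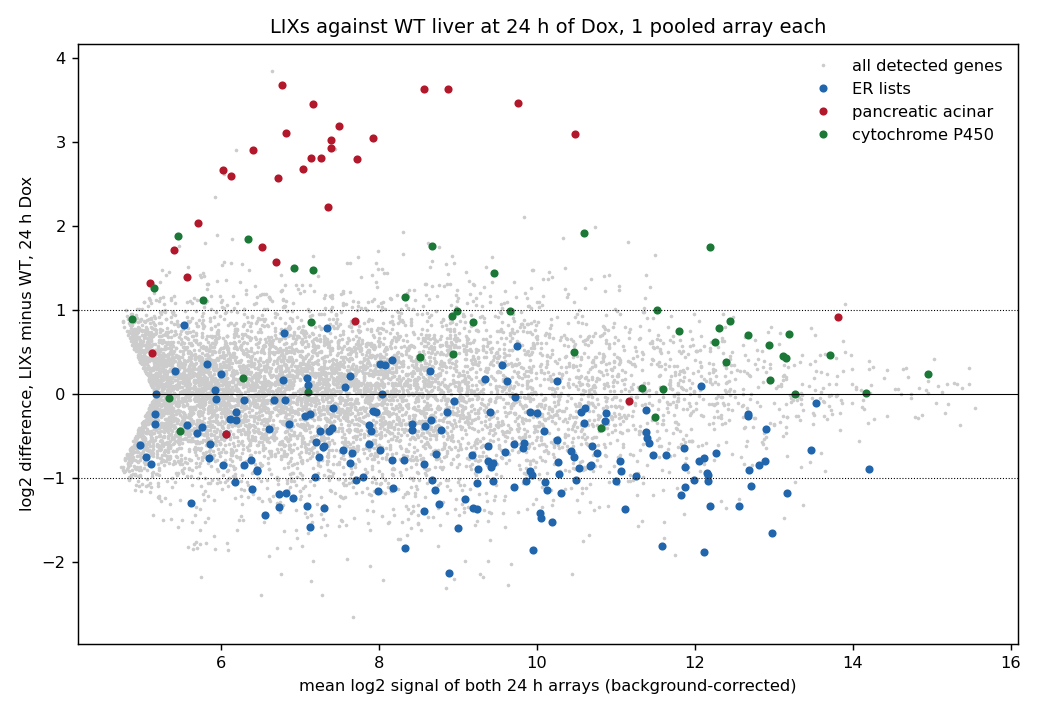
Log2 difference of LIXs minus WT at 24 h of Dox (vertical) against the mean log2 signal of both arrays after background correction (horizontal), 1 point per gene for all 8115 detected genes. Dotted lines mark 2-fold; 164 of 187 ER genes lie below 0, and 26 of 31 pancreatic acinar genes lie above the upper line.

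Of the detected genes, 14 had an ERSE, and 10 of these belong to the ER lists. All 14 read lower on the LIXs array, where 48.9% of all genes and 87.7% of the ER genes did. The 10 ER genes with an ERSE had a median log2 difference of -0.94, and the ER genes with a promoter but no ERSE one of -0.68, so most of the difference from all genes (0.02) was also present without the motif. At least 2-fold lower were 4 of the 10, and Syvn1 had the lowest difference of them at -1.66. Outside the ER lists the 4 genes with an ERSE differed by -0.42 (Pan2), -0.39 (Acacb), -0.26 (Spats2l) and -0.02 (Acnat2). At 48 h, in a pair that shares no array with the 24 h pair, 10 of the 14 read lower with a median of -0.28, and of the 4 outside the ER lists 3 read higher. In the ER lists 24 of 160 genes with a promoter in the table had at least 1 of the 3 motifs. That is 15.0%, against 1.26% of the detected genes and 0.884% of all 27025 genes of the table. ERSE alone was in 6.25% of the ER genes, 0.211% of the detected genes and 0.137% of all genes, and the ER lists hold many established targets of this response. Among genes at least 2-fold lower 4.95% had a motif, among those at least 2-fold higher 0.42%, and among the pancreatic acinar genes 0 of 22 did. Of the 16 lower genes with a motif 8 belong to the ER lists. Outside these lists 8 of 282 genes at least 2-fold lower had a motif, 2.84%, and 0 had an ERSE. A match is a stretch of letters and does not show binding.

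Syvn1, the ubiquitin ligase at the centre of ER-associated degradation, read 4631 on LIXs and 14399 on WT at 24 h, 7925 and 13352 at 48 h, 6168 in the refed and 10078 in the fasted WT pool. The LIXs array at 24 h was the lowest of the 6 and the WT array of that time the highest, 3.15-fold apart. Dnajc3, a co-chaperone of the ER Hsp70, read 784 and 2081 at 24 h, 1138 and 2368 at 48 h, and 913 and 842 on the refed and fasted arrays. It was 2.88-fold lower on LIXs, and the refed and fasted WT arrays lay close to the LIXs array and far below both WT Dox arrays. Derl3, a channel protein of ER-associated degradation, was dim, at 179 and 310, with a log2 difference of -1.34. Alg12, a mannosyltransferase of N-glycan assembly, had a difference of -1.39 on its brightest probe (327 and 706) and the opposite sign on its other detected probe, so its direction is uncertain.

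ER and Golgi genes gave the lowest medians of all lists examined. In 9 lists that follow a secreted protein from the translocon to the Golgi, together with the sensors and regulators of ER stress, 187 genes were detected. Of them 164 (87.7%) read lower on the LIXs array. At least 2-fold lower were 49 (26.2%) and at least 2-fold higher 0, where 4.87% of all detected genes were at least 2-fold lower and 3.68% at least 2-fold higher. The median log2 difference was -0.70. On the deposited intensities with no background correction it was -0.51, with 26 genes at 2-fold. Detected on the WT array alone were 6 of the 187, which could enter only by reading lower on LIXs, and on the LIXs array alone 1. Of the 180 detected on both arrays 158 read lower, 48 of them at least 2-fold, with a median of -0.70. In bulk tissue, fewer cells of a type and less RNA per cell cannot be told apart. Pancreatic transcripts, described further on, were high on the same LIXs array, with a summed intensity of 42239 for 31 acinar genes against 15542 to 18468 on the other arrays. In the 48 h pair the acinar sums were 18468 on LIXs and 17939 on WT. Of the 187 ER genes 154 read lower on LIXs in that pair, where 49.4% of all detected genes did, with a median of -0.33. The part of pancreatic transcripts in the lower ER readings was not tested at either time.

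Entry into the ER gave the lowest list median. Among 24 detected genes of the translocon, the signal recognition particle and its receptor, the signal peptidase and the TRAP complex, 22 read lower and 9 were at least 2-fold lower, with a median of -0.87. Srprb, the membrane anchor of the receptor for signal recognition particles, read 737 on LIXs and 1809 on WT at 24 h, 1176 and 1939 at 48 h, 901 refed and 1748 fasted, and was 2.67-fold lower. Spcs1, a subunit of signal peptidase, was bright on every array, at 6183 and 13907 at 24 h, 8962 and 11697 at 48 h, 6134 refed and 6364 fasted. Its WT 24 h reading stood above all others, while the LIXs 24 h reading lay beside the refed and fasted WT values. Ssr4, the brightest member and part of the TRAP complex, differed by -0.67, and Srp9, of the particle that halts translation at the signal peptide, by -1.18.

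Folding factors followed. Of 13 chaperones and co-chaperones 12 read lower, 3 of them at least 2-fold, with a median of -0.79. Sdf2l1, a partner of ER Hsp40 proteins, read 611 on LIXs and 1972 on WT at 24 h, 1100 and 1602 at 48 h, 819 refed and 1935 fasted, so that the LIXs 24 h array was the lowest of the 6. Hyou1, an ER chaperone that exchanges nucleotide on BiP, was dim at 174 and 334 and differed by -1.58 after background correction and by -0.94 without it. Hsp90b1, the ER form of Hsp90 and the brightest of the list, differed by -0.70. Dnajb9, an ER Hsp40 induced by XBP1s in other settings, read 1709 and 2888 at 24 h and differed by -0.79. For Hspa5, which encodes BiP, the probe was dim on all 6 arrays (180 to 240), and its difference of -0.26 says little about that transcript.

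Among 18 disulfide and prolyl isomerases 14 read lower and 2 were at least 2-fold lower, with a median of -0.63. Fkbp11, a prolyl isomerase of secretory cells, read 2402 on LIXs and 8565 on WT at 24 h, 3750 and 5106 at 48 h, 2248 refed and 1785 fasted. The WT 24 h array stood alone at the top. The 3.67-fold difference at 24 h went with a difference of -0.46 on the log2 scale at 48 h. Erp29, a folding factor of the ER lumen, read 3907 and 9661 at 24 h, 4804 and 8894 at 48 h, 3890 refed and 4936 fasted, and was 2.51-fold lower. P4hb, the abundant protein disulfide isomerase, read 13907 and 25738 at 24 h and was 1.86-fold lower, and Txndc5, a thioredoxin-like isomerase, was 1.97-fold lower.

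Glycosylation and disposal genes had the same direction. In the list of N-glycan assembly and oligosaccharyltransferase 30 of 31 genes read lower and 6 were at least 2-fold lower, with a median of -0.74. Dpm2, a regulatory subunit of the enzyme that makes dolichol-phosphate-mannose, read 458 and 1025 at 24 h, 476 and 924 at 48 h, 396 refed and 393 fasted, and differed by -1.35. Both WT Dox arrays were high and the other 4 lay between 393 and 476. Stt3a, a catalytic subunit of the oligosaccharyltransferase, was dim (150 and 248) with a difference of -1.44 that shrank to -0.72 without background correction, and Rpn2, the brightest member, differed by -0.42. Of 23 genes of ER-associated degradation 21 read lower and 6 were at least 2-fold lower, with a median of -0.61. Detected on the WT array alone were 3 of the 23, which could enter only by reading lower on LIXs, and 1 of these was at least 2-fold lower. Of the 20 detected on both arrays 18 read lower, 5 of them at least 2-fold, with a median of -0.41. Edem2, which trims mannose from misfolded glycoproteins, read 2483 and 5576 at 24 h, 3269 and 5170 at 48 h, 2742 refed and 4156 fasted, and its 3 other detected probes had the same sign. Herpud1, the brightest of that list, differed by -0.11.

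Transport between ER and Golgi gave more of the larger differences. Among 7 KDEL receptors, which return escaped ER proteins, and p24 cargo proteins all 7 read lower and 3 were at least 2-fold lower. Tmed3, a p24 protein, read 319 on LIXs and 1082 on WT at 24 h, 493 and 708 at 48 h, 297 refed and 331 fasted. It was 4.37-fold lower, the largest difference of any ER gene named here, and its other probe had the same sign. Kdelr3 read 472 and 1068 at 24 h but 615 and 2452 at 48 h, so its difference was -1.37 at 24 h and -2.17 at 48 h, and Kdelr2 differed by -1.11.

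For the COPII coat and ER exit sites 20 of 25 genes read lower and 5 were at least 2-fold lower, with a median of -0.54. Sec16a, the scaffold of exit sites, read 729 and 1866 at 24 h, 835 and 1304 at 48 h, 907 refed and 1380 fasted, with both LIXs arrays below all WT arrays. Preb, the exchange factor that loads Sar1 with GTP, was 2.59-fold lower (1472 and 3660) and Mcfd2, a cargo receptor subunit for coagulation factors, 2.51-fold lower (3045 and 7494). Tfg, of exit sites, and Bet1, a SNARE, were the other two, at -1.04 and -1.19. Sar1b, the brightest of the list, differed by -0.26, with the opposite sign on its other probe. In the COPI coat and Golgi list 33 of 37 genes read lower and 12 were at least 2-fold lower, with a median of -0.64. Stx5a, the syntaxin of ER to Golgi fusion, read 1732 and 5849 at 24 h, 2651 and 3916 at 48 h, 2075 refed and 2099 fasted, and was 3.51-fold lower. Cog6, of the Golgi tethering complex, was 3.01-fold lower, Arfgap3, a GTPase-activating protein of COPI vesicles, differed by -1.34 on a dim probe, and Gbf1, the exchange factor for Arf at the Golgi, differed by -1.31.

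**Figure D2:**
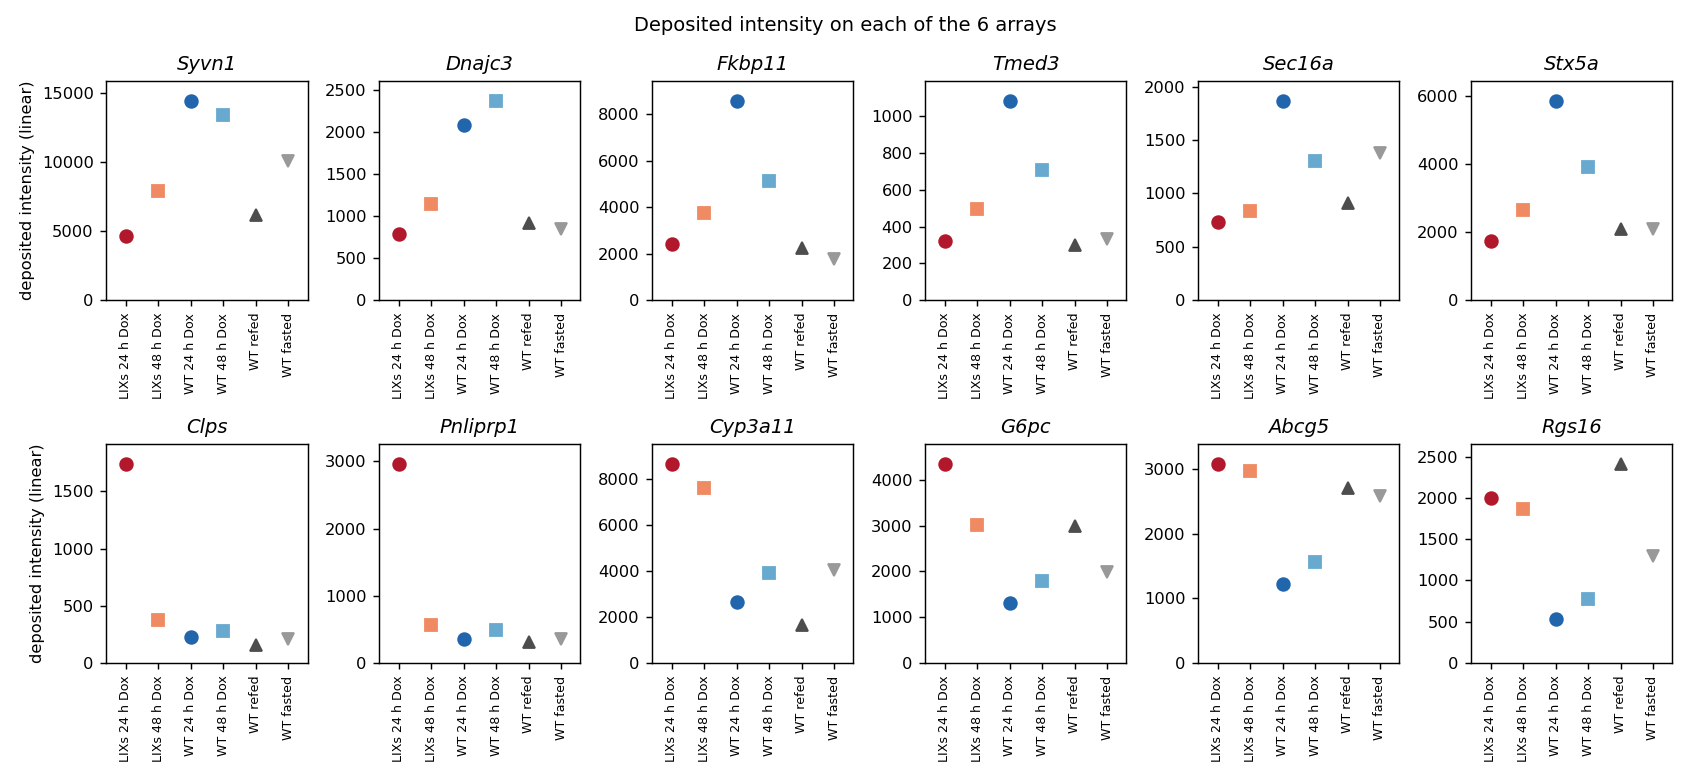
Deposited intensity (vertical, linear, from 0) of 12 genes on each of the 6 arrays, 1 point per array, with LIXs in red, WT on Dox in blue and the refed and fasted WT arrays in grey. For Fkbp11, Tmed3 and Stx5a the WT 24 h array stands highest and the LIXs 24 h array lies near the refed and fasted WT arrays; for Clps and Pnliprp1 the LIXs 24 h array stands alone.

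Upstream regulators were mixed. Of 10 detected sensors and regulators of the unfolded protein response 6 read lower, 4 of them at least 2-fold, with a median of -0.50 that was -0.75 at 48 h. Bhlha15, the transcription factor Mist1 of professional secretory cells and a known XBP1 target, read 264 on LIXs and 702 on WT at 24 h, 306 and 824 at 48 h, 321 refed and 332 fasted. Only the WT Dox arrays were high, and the 2 other probes of the gene had the same sign. Creb3l2, a membrane-bound transcription factor, differed by -1.13 on a dim probe. Wfs1, an ER membrane protein induced by ER stress, differed by -1.36, and Creb3, of the same family as Creb3l2, by -1.14, with the opposite sign on its other probe. Ern1, the sensor that splices Xbp1, read 307 and 217 at 24 h and differed by 0.79.

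Targets of PERK, ATF4 and CHOP, the branch that answers ER stress by halting translation, did not share the direction of the ER genes. Of 22 detected 12 read lower and 10 higher, with a median of -0.06, and 2 were at least 2-fold lower and 1 higher. Aldh18a1, of proline synthesis, was 3.95-fold lower (367 and 1176) and Nupr1, a stress-induced nuclear protein, 2.66-fold lower (514 and 1210). Trib3, a pseudokinase induced by CHOP, was 2.31-fold higher (289 and 178). Ddit3, which encodes CHOP, read 238 and 373 at 24 h, 341 and 938 at 48 h, 497 refed and 1162 fasted, so the LIXs 24 h array was the lowest of the 6 and the WT 48 h and fasted arrays the highest.

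Set among all arrays, the ER genes placed the LIXs 24 h array at the level of the refed WT array. Each gene's log2 signal was centred on its mean over the 6 arrays, and the median over the 187 genes was -0.26 on LIXs at 24 h and 0.41 on WT at 24 h. It was -0.08 on LIXs and 0.27 on WT at 48 h, -0.26 in the refed and -0.09 in the fasted WT pool. Gene by gene, the median difference of the LIXs 24 h array was -0.70 from WT at 24 h, -0.55 from WT at 48 h, -0.08 from refed WT and -0.23 from fasted WT. The WT 24 h array was the highest of the 6 for 95 of the 187 genes, and the LIXs 24 h array the lowest for 69, against 58 for fasted and 38 for refed WT. Over all 8115 detected genes the WT 24 h array was the highest for 1519. The lowest was the LIXs 24 h array for 1319 of them, the fasted WT array for 2860 and the refed WT array for 1076. Below all 4 WT arrays at once the LIXs 24 h array stood for 73 ER genes, 39.0%, where 18.0% of all detected genes did. Both LIXs arrays lay below all 4 WT arrays for 25 ER genes, 13.4%, where 7.31% of all detected genes did. The WT arrays differ in feeding and in time on Dox, so their range is not replicate error.

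**Figure D3:**
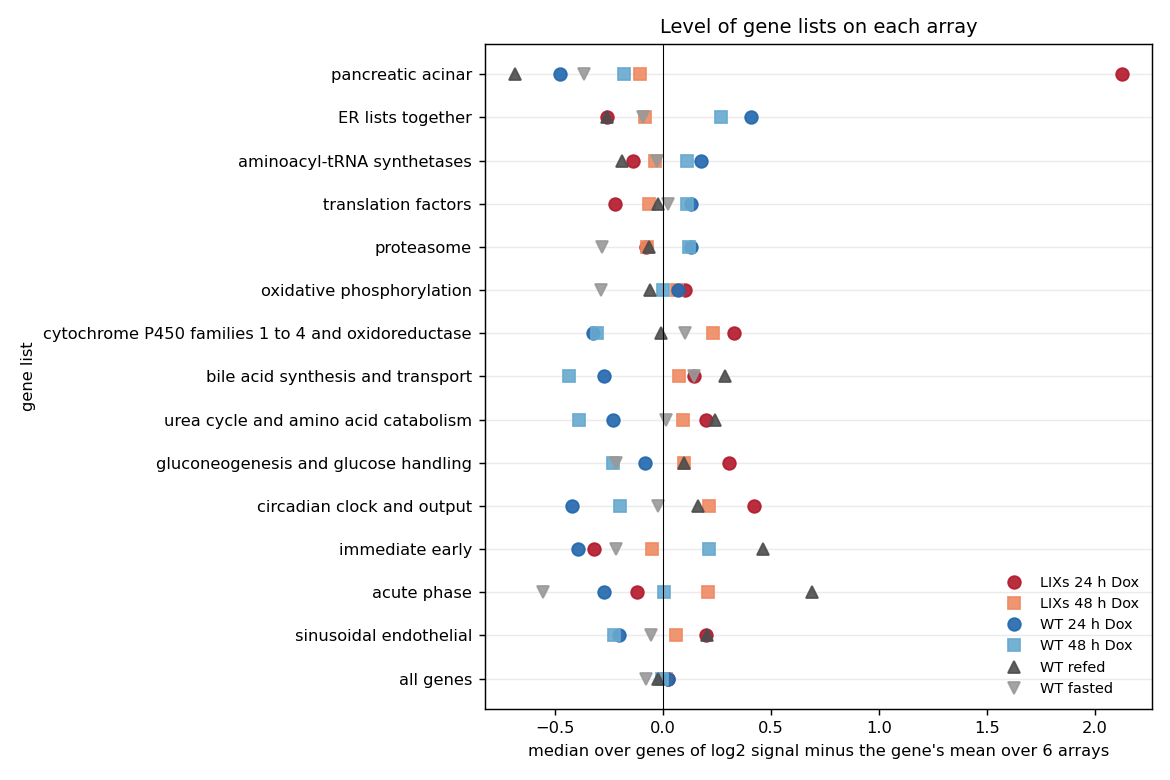
Level of 14 gene lists and of all genes on each array, as the median over genes of log2 signal minus that gene's mean over the 6 arrays (horizontal), 1 symbol per array. For the ER lists both WT Dox arrays lie at 0.27 and above and the LIXs 24 h array at -0.26, the refed value; for cytochrome P450 genes the order of LIXs and WT Dox arrays is turned; pancreatic acinar genes set the LIXs 24 h array apart at 2.13.

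Genes of the exocrine pancreas had the highest median of all lists examined, and most were high on the LIXs 24 h array alone. Of 36 acinar genes on the array 31 were detected, 22 on both 24 h arrays and 9 on the LIXs array alone, and those 9 could enter only by reading higher on LIXs. Of the 22 detected on both, 18 reached 2-fold higher, and the median log2 difference over the 22 was 2.81. Among all 36, with no filter, 26 were at least 2-fold higher and the median was 2.59. For the 31 the count was also 26 (20 on the deposited intensities) and the median 2.69, or 1.41 without background correction, and at 48 h the median was 0.14. The LIXs 24 h array was the highest of the 6 for 28 of the 31, where it was the highest for 1508 of all 8115 detected genes. Pnliprp1, a pancreatic lipase-related protein, read 2967 on LIXs and 353 on WT at 24 h, 568 and 487 at 48 h, 309 refed and 355 fasted. Cela2a, a pancreatic elastase, read 4270 and 580 at 24 h, 766 and 609 at 48 h, 435 refed and 1367 fasted. For both genes the other 5 arrays lay well below the LIXs 24 h array. Amy2a5, the pancreatic amylase gene and the brightest of the list, read 19880 on LIXs at 24 h and 10276 to 10962 elsewhere, a 1.90-fold excess over WT. The 2 acinar genes that read lower were Cela1 and Erp27, at -0.08 and -0.47. Prss3, Reg3d, Rbpjl and Serpini2 were not detected on any array. Trypsin genes such as Try4 (3.46) and Try10 (2.81) are close copies, so a probe may read more than 1 of them.

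Of 18 islet markers on the array 4 were detected, and the median of the 4 was 0.33. Detected on the LIXs array alone were 2 of them, which could enter only by reading higher there. The median was -0.65 over the 2 detected on both arrays. Among all 18, with no filter, it was 0.06, with 10 higher and 8 lower. Slc2a2, a glucose transporter that hepatocytes also make, was lower at -1.42 (378 and 856), Ttr, a plasma carrier of hepatocytes too, differed by 0.13, and Gcg, the glucagon gene, by 0.53 on a dim probe (135 and 121). Ins2, an insulin gene, read 474 on the LIXs 24 h array and 118 on WT, with 139 and 140 at 48 h and 147 and 194 on the refed and fasted arrays. It was not detected on the WT 24 h array and was at least 10.6-fold higher on LIXs, or at least 3.67-fold on the deposited intensities. A bound here sets the bright reading against the lowest detected signal or the gene's own dim reading, whichever is higher. Sst, Ppy, Pyy, Iapp, Chga, Chgb and Pdx1 were among 12 islet markers not detected on any array. The other 4 of the 5 largest bounds on the high side were those of Try5 (10.9-fold), Sycn (6.43-fold), Gm10334 (5.56-fold) and Ctrc (4.78-fold), which are acinar genes or, for Gm10334, a trypsinogen-like gene. Gut, muscle and lymphocyte markers were nearly absent. Of 18 intestine and stomach markers on the array 1 was detected, Apoa4, which hepatocytes also make, and of 16 muscle markers 3. Among 10 adipocyte markers 4 were detected, and Retn, Plin1, Fabp4, Ucp1 and Cidea were not detected on any array. Car3, a carbonic anhydrase of adipocytes and also of rodent liver, read 5223 and 1721 at 24 h, 3053 and 1952 at 48 h, 1696 refed and 2677 fasted.

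Markers of 4 other cell types of liver and blood read a little higher on the LIXs array. The medians were 0.30 for 18 Kupffer cell genes, 0.39 for 20 sinusoidal endothelial genes, 0.41 for 20 stellate cell genes and 0.49 for 8 erythroid genes. In these lists 1 gene was at 2-fold, the Kupffer cell receptor gene Timd4 (170 and 128). Timd4 was detected on the LIXs array alone and could enter only by reading higher there. Summed intensities were 10564 on LIXs and 7761 on WT for Kupffer cells and 10338 and 8692 for endothelium, and the other 4 arrays ranged from 8819 to 12116 and from 8720 to 15362. Of 5 detected cholangiocyte genes 3 read lower and 2 higher, with a median of -0.37 and 0 at 2-fold. Krt18 and Krt8, keratins also found in hepatocytes, differed by -0.80 and -0.72, whereas the keratin Krt23 read higher, at 243 and 185 at 24 h (0.70) and at 286 and 170 at 48 h (1.33). Krt19 and Epcam were not detected on any array. Of 5 detected neutrophil genes 3 read lower and 2 higher, with a median of -0.10, and 1 was at least 2-fold lower, the myeloperoxidase gene Mpo, at -1.16 on a dim probe (111 and 145). Mpo was detected on the WT array alone and could enter only by reading lower on LIXs. S100a8 (220.5 and 199) and Lcn2 (1638 and 1746) differed by 0.26 and -0.10, far below their refed readings of 1436 and 17320. The part of these cells in the liver gene lists described next was not tested.

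**Figure D4:**
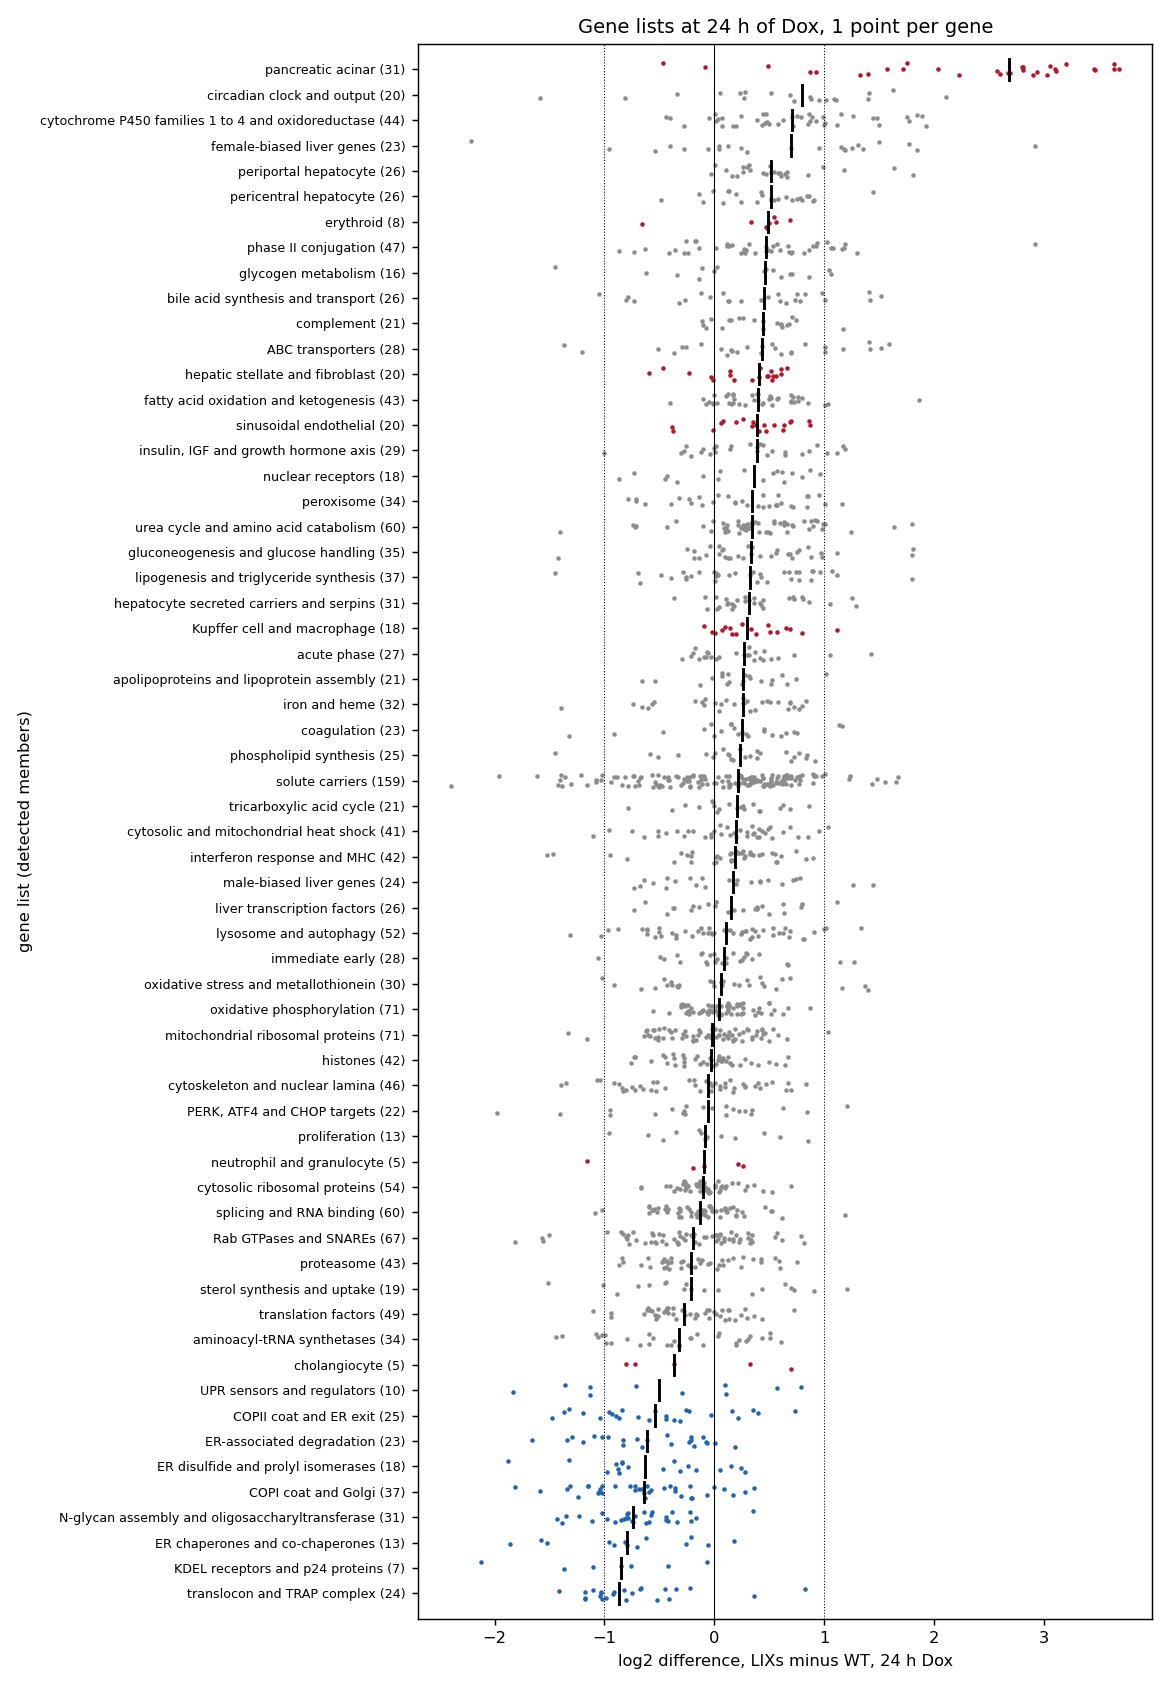
Log2 difference of LIXs minus WT at 24 h of Dox (horizontal) for every detected member of each list with at least 5 of them, 1 point per gene, with the list median as a bar and the number of genes in parentheses. ER lists (blue) hold the 9 lowest medians and pancreatic acinar genes the highest at 2.69; markers of other tissues and cells are in red and dotted lines mark 2-fold.

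Drug-metabolising genes read higher on the LIXs array as a group. Of 44 detected cytochrome P450 genes of families 1 to 4 with their electron donors, 40 (90.9%) read higher, where 51.1% of all detected genes did. At least 2-fold higher were 12 (27.3%) and at least 2-fold lower 0, with a median of 0.71. All 40 also read higher at 48 h, where the median was 0.58, against 2871 of the 4143 higher genes among all those detected. Detected on the LIXs array alone were 3 of the 44, which could enter only by reading higher there, and 2 of these reached 2-fold. Of the 41 detected on both arrays 37 read higher, 10 of them at least 2-fold, with a median of 0.63. Among all 72 on the array, with no filter, 55 read higher and 17 lower, with a median of 0.20. Cyp3a11, the main drug-oxidising P450 of mouse liver, read 8675 on LIXs and 2642 on WT at 24 h, 7613 and 3907 at 48 h, 1662 refed and 4039 fasted, so both LIXs arrays lay above all WT arrays. Cyp3a25 read 3118 and 891 at 24 h, 2647 and 1343 at 48 h, 1583 refed and 1171 fasted, in the same order, and was 3.79-fold higher at 24 h. Cyp2b9 and Cyp2b13, female-biased in mouse liver, were 3.41-fold and 3.60-fold higher on dimmer probes (843 and 313, 247 and 136), and Cyp2b10, a classic target of the receptor CAR, was 2.82-fold higher. Cyp2e1, the brightest of the list, read 34539 and 29215, a 1.18-fold difference. The LIXs 24 h array exceeded all 4 WT arrays for 22 of the 44 genes (against 21.4% of all detected genes), and both LIXs arrays did for 16 (36.4%, against 9.81%). Closely related P450 genes may share probe signal.

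Conjugating enzymes had the same direction with smaller size. Of 47 phase II genes 36 read higher and 8 of them by 2-fold or more, with a median of 0.47. Detected on the LIXs array alone were 5 of the 47, which could enter only by reading higher there, and 0 of these reached 2-fold. Of the 41 detected on both arrays 31 read higher, with a median of 0.37. Among all 65 on the array, with no filter, 48 read higher and 17 lower, with a median of 0.27. Sult2a2, a hydroxysteroid sulfotransferase and female-biased in mouse liver, read 573 on LIXs and 157 on WT at 24 h, 222 and 171 at 48 h, 131 refed and 162 fasted, and was 7.56-fold higher, the largest difference outside the pancreatic genes. Gstt3, a glutathione transferase, was 2.29-fold higher and Sult1d1 2.46-fold, with the opposite sign on the other probe of Sult1d1. Nr1i3, the xenobiotic receptor CAR, read 1252 and 519 at 24 h, 1403 and 781 at 48 h, 1439 refed and 1192 fasted. Its 2 WT Dox readings were the low ones.

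Most genes of bile formation also read higher, whereas solute carriers had no common direction. In the bile acid list 18 of 26 genes read higher, 4 at least 2-fold, with a median of 0.46. Abcg5 and Abcg8, which together export sterols into bile, were 2.65-fold and 2.87-fold higher. Abcg5 read 3088 and 1223 at 24 h, 2978 and 1562 at 48 h, 2706 refed and 2583 fasted, so the WT Dox arrays were low and the other 4 within 2583 to 3088. Cyp8b1, of cholic acid synthesis, was the gene at least 2-fold lower, at 6940 and 14235 at 24 h, 8483 and 7494 at 48 h, 16177 refed and 14658 fasted. Abcb4, the phospholipid exporter of bile, was 2.67-fold higher (3231 and 1270) with 3750 on the refed array. Over 28 ABC transporters, a list that shares these genes, 7 were at least 2-fold higher and 2 lower, with Abca8a at 1.59, and the lower ones Abcb8, of the mitochondrial membrane, at -1.37 and Abcf3 at -1.21. Of the 159 detected solute carriers 93 read higher and 66 lower, 8 at least 2-fold higher and 15 at least 2-fold lower. Slc25a25, a mitochondrial carrier, was 3.19-fold higher and Slc38a10 5.26-fold lower, with 2 further probes of the same sign.

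Glucose and amino acid genes tended to read higher. Of 35 genes of gluconeogenesis and glucose handling 28 read higher and 3 of them by 2-fold or more, with a median of 0.34. G6pc, the catalytic subunit of glucose-6-phosphatase, read 4358 on LIXs and 1307 on WT at 24 h, 3024 and 1782 at 48 h, 2984 refed and 1990 fasted. Slc2a2, the liver glucose transporter GLUT2, went the other way, at 378 and 856 at 24 h, 365 and 311 at 48 h, 276 refed and 138 fasted, where the WT 24 h array alone was high. Foxo1, a transcription factor that drives G6pc, was 2.17-fold higher on a dim probe, and Pklr, liver pyruvate kinase, was at least 2.88-fold higher, since the WT array did not detect it. In the glycogen list Ppp1r3b and Ppp1r3c, which target phosphatase to glycogen, were 2.08-fold and 2.06-fold higher, and Pygb, the brain-type phosphorylase, was 2.73-fold lower. In the list of urea cycle and amino acid catabolism 51 of 60 genes read higher, 4 at least 2-fold, with a median of 0.34 at 24 h and 0.52 at 48 h. Csad, of taurine synthesis, was 3.48-fold higher, Hal, which opens histidine breakdown, 3.12-fold higher, and Cbs, of transsulfuration, 2.65-fold lower (626 and 1507).

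In lipid metabolism 36 of 43 genes of fatty acid oxidation and ketogenesis read higher, 3 at least 2-fold, with a median of 0.40. Acot1, a fatty acyl-CoA thioesterase, read 2548 and 768 at 24 h, 2456 and 1636 at 48 h, 4878 refed and 4102 fasted, so the LIXs arrays lay between the WT Dox arrays and the other WT arrays. Of 37 lipogenic genes 26 read higher, 3 at least 2-fold (Srebf1, Pklr and Pnpla3), with a median of 0.32. Pklr and Pnpla3 were detected on the LIXs array alone and could enter only by reading higher there. Of the 33 detected on both arrays 24 read higher, 1 was at least 2-fold higher and 1 at least 2-fold lower, with a median of 0.32. Among all 44 on the array, with no filter, the median was 0.08. Srebf1, the lipogenic regulator, differed by 1.12 on a dim probe (188 and 137), and Fads1, the brightest, by 0.19. Sterol genes had no common direction, with 11 of 19 lower and a median of -0.21. Fdps, which makes farnesyl pyrophosphate, was 2.86-fold lower (1930 and 5356), Lss 2.02-fold lower, and Aacs, acetoacetyl-CoA synthetase, 2.30-fold higher. Peroxisomal Cat, the catalase gene, read 2083 and 982 at 24 h, 1362 and 896 at 48 h, 1115 refed and 549 fasted.

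Sex-biased, zonal and clock genes were also examined, with the sex and hour of the pools unknown. Of 23 female-biased genes 17 read higher and 10 were past 2-fold on the high side, with a median of 0.69, while Aqp4, a water channel in that list, was 4.65-fold lower. Of 24 male-biased genes 13 read higher and 2 were at least 2-fold higher, Selenbp2 at 1.45 and Hsd3b5 at 1.26, with a median of 0.17. Mup2, the brightest male-biased gene, read 45154 and 50652. Pericentral and periportal genes had equal medians of 0.51 each. In the clock list 17 of 20 genes read higher, 7 at least 2-fold, with a median of 0.80, against 0.27 at 48 h. Rgs16, a regulator of G-protein signalling with a daily rhythm in liver, read 1999 and 534 at 24 h, 1872 and 775 at 48 h, 2417 refed and 1294 fasted. Tsc22d3, a glucocorticoid-induced gene, was 3.09-fold higher, while Noct, a rhythmic gene, read 182 and 361, and Dbp, the brightest of the list, differed by 0.28.

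The secreted products of the hepatocyte read slightly higher while the ER genes that process them read lower. Of 31 carriers and serpins 28 read higher, 3 at least 2-fold, with a median of 0.32. Rbp4, the retinol carrier, read 3396 and 1441 at 24 h, 2369 and 1430 at 48 h, 1878 refed and 1023 fasted, and A1bg, a plasma glycoprotein, 2108 and 939 at 24 h, 1118 and 555 at 48 h, 308 refed and 319 fasted. Serpina1b, an alpha-1-antitrypsin gene and the brightest, read 36845 and 47612, with both other probes of the opposite sign. Medians were 0.26 for 21 apolipoprotein genes, 0.25 for 23 coagulation genes, 0.44 for 21 complement genes and 0.27 for 27 acute phase genes. Klkb1, plasma prekallikrein, was 2.23-fold higher, and Saa4, a constitutive serum amyloid, 2.68-fold higher (4441 and 1716). The refed array was the highest for 20 of the 27 acute phase genes, where it was the highest for 1099 of all 8115 detected genes.

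Other stress programmes showed little common movement. Medians were 0.20 for 41 cytosolic and mitochondrial heat shock genes, 0.09 for 28 immediate early genes, 0.06 for 30 genes of oxidative stress and metallothionein and 0.19 for 42 interferon and MHC genes. Gclm, of glutathione synthesis, and Osgin1, both known targets of NRF2, were 2.58-fold and 2.63-fold higher, at 1898 and 793 and at 1981 and 810. Dusp1 and Gadd45g, immediate early genes, were 2.21-fold and 2.41-fold higher at 24 h and differed by -0.23 and 0.10 at 48 h. Usp18 and Dhx58, interferon-induced, were 2.87-fold and 2.76-fold lower, while B2m, the brightest interferon-related gene, differed by 0.05.

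General machines moved little, apart from parts of translation. Medians were 0.04 for 71 genes of oxidative phosphorylation, -0.02 for 71 mitochondrial ribosomal proteins, -0.11 for 54 cytosolic ribosomal proteins, -0.03 for 42 histones and -0.21 for 43 proteasome genes, with 0 at 2-fold in either direction except for the mitochondrial ribosomal proteins, with Mrps12 and Mrpl58 lower and Mrps6 higher. Of 34 aminoacyl-tRNA synthetases 22 read lower and 5 were at least 2-fold lower, with a median of -0.32. Kars, for lysine, read 311 and 685 at 24 h, 464 and 701 at 48 h, 416 refed and 484 fasted, and Qars, for glutamine, 1135 and 2812 at 24 h, 1624 and 2588 at 48 h, 1359 refed and 2122 fasted. Nars, Sars2 and Vars were the others past 2-fold, at -1.08, -1.06 and -1.02. Translation factors had a median of -0.28 over 49 genes with 1 at 2-fold, the kinase gene Eef2k on a dim probe (121 and 154). Eef2k was detected on the WT array alone and could enter only by reading lower on LIXs. The LIXs 24 h array lay below all 4 WT arrays for 23 of the 49 genes (46.9%), where it did for 18.0% of all detected genes. Among cytoskeletal genes Lmna, for lamins A and C, was 2.64-fold lower (1006 and 2499), with 5 other probes of the same sign, and 4 of the 46 genes were at least 2-fold lower. For Rab GTPases and SNAREs the median was -0.20 over 67 genes. Rab3d, of secretory granules, read 349 and 844 at 24 h, 470 and 801 at 48 h, 382 refed and 858 fasted, and Vamp4, of the trans-Golgi network, was 2.84-fold lower.

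Outside the lists the largest decreases were in genes of varied roles. Ica1, an islet cell autoantigen linked to secretory granules, read 174 on LIXs and 602 on WT at 24 h, 316 and 596 at 48 h, 222 refed and 289 fasted, and at 6.27-fold was the largest decrease among genes detected on both arrays and past 2-fold on the deposited intensities. Poc1b, a centriolar protein, read 300 and 1119 at 24 h, 390 and 468 at 48 h, 309 refed and 433 fasted, with 3 other probes of the same sign. Lrtm1, a leucine-rich repeat protein, read 453 and 1837 at 24 h, 463 and 366 at 48 h, 483 refed and 959 fasted. For Poc1b and Lrtm1 the WT 24 h array stood above the other 5, whereas Ica1 was high on both WT Dox arrays. Ccdc134, a secreted ER protein, differed by -2.20 at 24 h and -1.33 at 48 h, and Scarf2, a scavenger receptor family member, by -2.14 and -0.73. Gmds, of GDP-fucose synthesis, was 3.98-fold lower. For genes detected on the WT array but not on the LIXs array the 5 largest bounds ran from at least 2.89-fold (Zfp933) to at least 3.60-fold (Kbtbd13), and on the deposited intensities from 1.53-fold to 1.72-fold.

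Among 847 bright genes, with an intensity above 2000 on at least 1 of the 24 h arrays, 28 were at least 2-fold higher and 54 at least 2-fold lower. Over all 8115 detected genes these counts were 299 and 395. Nelfe, of the complex that pauses RNA polymerase, was 4.43-fold lower, at 752 and 3011 at 24 h, 1209 and 1744 at 48 h, 968 refed and 1112 fasted. Clptm1l, a membrane protein, was 3.78-fold lower, at 1866 and 6799 at 24 h, 2785 and 4906 at 48 h, 2872 refed and 5632 fasted. Dynll1, a dynein light chain, was 3.29-fold lower and Igsf5, a junction protein, 3.35-fold lower. Tceal8 and Tceal9, related X-linked genes, were 3.20-fold and 2.96-fold lower. On the high side stood Nrep, a neuronal regeneration related protein, at 3489 and 948 at 24 h, 2197 and 1227 at 48 h, 1138 refed and 1074 fasted, and Grb7, a signalling adaptor, at 2286 and 868, 2.83-fold higher.

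Over all 8115 genes the quartiles of the difference were -0.37 and 0.38, with 299 genes at least 2-fold higher and 395 at least 2-fold lower. Of these, 51 of the higher genes were detected on the LIXs array alone and 53 of the lower genes on the WT array alone. At 4-fold these counts were 27 and 16. Of the 299, 26 were acinar and 0 were ER genes, and of the 395, 49 were ER and 0 acinar. How many genes pass 2-fold depends on brightness. At a mean intensity up to 200 it was 5.56% of 3381 genes, or 0.0887% on the deposited intensities, between 500 and 2000 it was 12.5% of 1532 genes, or 9.01%, and above 10000 it was 4.10% of 122 on both scales. At 48 h the matching shares were 4.41%, 3.52% and 0.82%. A second detected probe was available for 88 of the higher and 160 of the lower genes, and for 80 and 145 of them all further probes had the same sign. Of all detected genes 2581 had a second detected probe, and how many of those had the same sign throughout is not given here.

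The 48 h pair was not used to choose these genes and shares no array with the 24 h pair. Of the 299 higher genes 268 also read higher at 48 h, with a median of 0.60, and of the 395 lower genes 362 also read lower, with a median of -0.56, where 49.4% of all the detected genes read lower at 48 h. At least 2-fold in the same direction at both times were 34 of the higher and 40 of the lower genes, where 1.42% of all the detected genes were at least 2-fold higher at 48 h and 2.12% at least 2-fold lower, and 1 gene, Chaf1b, was 2-fold in opposite directions on a dim probe (142 and 112 at 24 h, 116 and 146 at 48 h). Among ER genes 146 of 187 read lower at both times, and of 31 acinar genes 17 read higher at both. Over all 8115 detected genes 2734 read lower and 2871 higher at both times. Of the 31 acinar genes 9 were detected on the LIXs array alone and could enter only by reading higher at 24 h. The plot of both times shows the ER and P450 genes along the diagonal and the acinar genes along the 24 h axis.

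**Figure D5:**
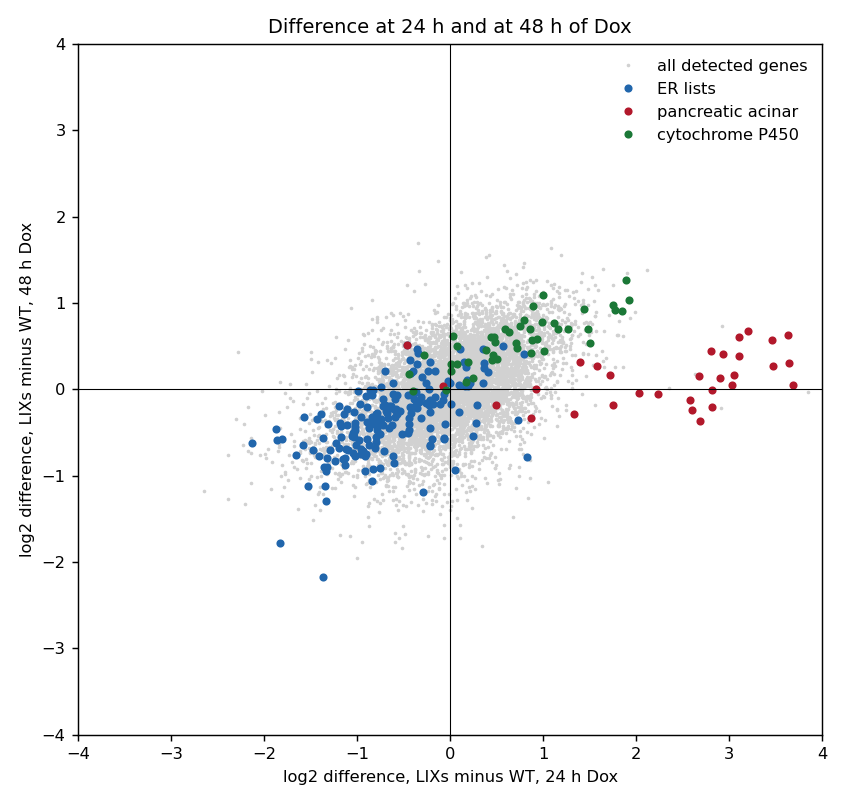
Log2 difference of LIXs minus WT at 48 h of Dox (vertical) against that at 24 h (horizontal) for the 8115 genes, 1 point per gene. ER genes lie mostly in the lower left (146 of 187, against 2734 of all 8115). All 40 P450 genes that read higher at 24 h lie in the upper right, where 2871 of all 8115 lie. Acinar genes spread to 3.68 at 24 h and stay below 1 at 48 h.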

How the data were processed

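Biotin-labelled cRNA of 6 pooled liver RNAs was read on Illumina bead arrays, 1 array per group, per the labels' protocols. The authors deposited a table of linear intensity values for 45281 probes, with the software GenomeStudio named in the submitters' processing notes, and with no version, normalization or background setting in the sources used here. The lowest deposited intensity was 81.1, the median 113 and the highest 50652, and sorted arrays lay within 0.0199 of each other on the log2 scale, so they were taken as already normalized between arrays. A second table was not used, since its 12 per-sample columns carry names that match no sample.

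From these values, background was corrected with limma's normexp (mean 109 and SD 7.67, from the mode of all probes), an offset of 16 was added, and log2 values were taken after quantile normalization between arrays (limma 3.58.1, R 4.3.3). The correction was tested on simulated data. Tables were joined with pandas 2.3.3 in Python 3.11.15. Of the probes 34885 had 1 gene name, 18 several and 10378 none, and 34807 of the named ones matched RefSeq. Detected genes numbered 7521 to 7597 per array. The number of arrays limits the precision, and no test, error or p-value is given. Genes were counted at 2-fold.

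Members, 66 gene lists and rules were chosen with earlier results of these data known. Genes named were, per list, the 3 largest differences among genes detected on both arrays and the brightest gene (5 and 2 for lists of over 60 genes), 6 genes fixed by name (Xbp1, Hspa5, Ddit3, Dnajb9, Alb, Ins2), the 20 largest in each direction also past 2-fold on the deposited values, the 5 largest bounds, the 10 largest among genes above 2000, and up to 6 ER genes with a motif. From this set the text takes those that show each group. Ern1, Cela1, Erp27, Timd4, Chaf1b, Eef2k, Cyp8b1, Abcb8, Abcf3, Pklr, Pnpla3, Creb3l2, Tfg, Bet1, Sars2, Vars, Mpo, Gcg, Pan2, Acacb, Spats2l and Acnat2 were named after their values were seen, mostly to complete short counts. Markers checked for hepatocytes came from a list of Alb, Apoa1, Apob, Ttr, Tf (Trf in the annotation), Serpina1a, Cps1 and Fga. ER retrieval signals in proteins were not analysed here. Alternatives were no background correction, an offset of 50, a detection level of 200 or none, detection on both arrays, the mean of detected probes, median centring and thresholds of 1.5-fold and 3-fold.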

Additional observations from a re-analysis of the deposited data

Results flagged for a closer look

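Hspb6, a small heat shock protein, differed by -1.10 at 24 h and by 0.57 at 48 h, so that the array labelled LIXs was on opposite sides of WT at the 2 times. It read 821 and 1657 at 24 h, 951 and 669 at 48 h, 880 refed and 1587 fasted. The difference between the times was not tested.

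Probes without a gene name, which no comparison above uses, also held signal. Of 10396 probes with no name or several, 1812 were detected on at least 1 of the 24 h arrays, and 67 of them were at least 2-fold higher on the LIXs array and 78 at least 2-fold lower. Among the 8115 detected named genes these counts were 299 and 395. With 1 array per group no outlier test within groups was possible.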

How the results depend on the processing

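The counts at 2-fold moved with the background step. They were 299 higher and 395 lower with it, 103 and 152 without it, and 160 and 244 with an offset of 50. At 1.5-fold they were 1178 and 1270, and at 3-fold 52 and 63. Without background correction 95 of the 103 higher and 142 of the 152 lower genes had the same sign at 48 h. With it these were 268 of the 299 and 362 of the 395. The medians of acinar and ER genes were 1.41 and -0.51 without background correction, in place of 2.69 and -0.70. With no detection filter the medians of the adipocyte and cholangiocyte lists changed sign, to -0.038 and 0.14. The other alternatives left both counts within 1.5 times of the main counts. Of 309 named genes, 47 were no longer past 2-fold without background correction, 22 with the offset of 50, 22 with the mean of probes and 2 after centring, and 0 changed sign. No paired analysis was possible because each group holds 1 array and the labels carry no replicate numbers. Signal over background limits the dim genes, whose differences shrink most on the deposited intensities.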

Other observations

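Over 32 detected iron and heme genes 22 read higher and 10 lower, with a median of 0.26. Hamp2, a hepcidin gene, read 11222 on LIXs and 6828 on WT at 24 h, 6940 and 3481 at 48 h, 1688 refed and 2789 fasted, so that each LIXs array was above the WT array of its time. Slc40a1, the iron exporter ferroportin, was 1.74-fold higher on LIXs at 24 h, and Tfr2, a liver iron sensor, 1.78-fold higher. Slc11a2, an iron importer, was 2.63-fold lower, with 1 of its 2 other probes of the opposite sign.

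In the insulin, IGF and growth hormone list 20 of 29 genes read higher and 4 were past 2-fold on the high side, with a median of 0.38. Grb14, an inhibitor of the insulin receptor, was 2.28-fold higher (234 and 155), and Igfbp1, a binding protein for IGF that insulin represses, was 2.25-fold higher on a dim probe (181 and 132) and differed by -0.30 at 48 h. Errfi1, the brightest of the list, read 10542 and 10574. Lysosomal genes had no common direction, with 27 of 52 higher, among them Ctsb, the protease cathepsin B, at 7113 and 4114, and with Atp6v0d1, a proton pump subunit, 2.04-fold lower.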
